A study of Homo sapiens and Mus musculus with 26 samples.

Results

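The lysine and asparagine tRNAs are described here through their fragments in TRAC-Seq libraries, in which mature tRNA reads were deposited in 4 classes: whole-length, 5' fragments, 3' fragments and other. Members were taken by name, as every mature lysine or asparagine row of the mouse and SNU449 tables. The mouse table holds 76 such rows from 19 isodecoders (9 Lys-CTT, 5 Lys-TTT and 5 Asn-GTT) among 824 mature tRNA rows from 206 isodecoders and 19077 rows in all. The SNU449 table holds 124 from 31 isodecoders (10 Lys-CTT, 8 Lys-TTT and 13 Asn-GTT) among 1020 mature tRNA rows from 255 isodecoders and 19598 rows in all. An isodecoder is a tRNA sequence that shares its anticodon with others but differs elsewhere, and its number is assigned within a species, so Lys-CTT-2 of mouse is not matched here to Lys-CTT-2 of human. A read was seen for 51 of the mouse rows and 94 of the SNU449 rows.

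The mouse libraries came from liver tumor tissue of 3 control C57 mice, labelled wild type, each with an input and a NaBH4-treated library. The labels name no age, sex or way in which the tumors arose. SNU449, a human hepatocellular carcinoma line, gave 1 input and 1 NaBH4-treated library of control (NC) cells and the same of cells labelled OE-WT and METTL1 overexpression. All libraries, inputs included, were made from small RNA treated with AlkB, an enzyme that removes base methyl groups which stop reverse transcription. For the overexpressing cells the labels give neither the promoter nor whether they are 1 clone. With 1 library a group, no SNU449 comparison has a replicate check, and none was tested.

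Lysine tRNAs deliver lysine to ribosomes through the anticodons CTT and TTT, which read AAG and AAA codons. Asparagine tRNAs carry GTT, which reads AAC and AAT codons. METTL1, with its partner WDR4, places N7-methylguanosine (m7G) in the variable loop of a subset of tRNAs, and lysine and asparagine tRNAs are among those known to carry it. NaBH4 reduces m7G so that the RNA can then be cleaved there, and a cleaved tRNA leaves a 3' fragment that begins near the modified base. The series applied the method to map m7G in tRNA, and the 3' signal after NaBH4 is set against input here. The 3' rows hold all 3' fragments, not those of cleavage alone. Without NaBH4 they already made up most reads, on average 91.2% for Lys-CTT, 98.5% for Lys-TTT and 99.4% for Asn-GTT in mouse inputs.

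The mouse libraries held between 1943806 and 2820877 mature tRNA reads each, and the SNU449 libraries between 2222876 and 3368948. Lysine and asparagine rows took 8.25% to 13.2% and 11.2% to 17.6% of them. After NaBH4 the total mature tRNA signal was higher on the log2 scale by 0.78, 0.50 and 0.71 in the 3 mice and by 0.65 and 0.70 in control and overexpressing SNU449 cells. This shift lies under every change of level given below. The hepatocyte microRNA Mir122 had 1269 to 2833 reads in the mouse libraries, and Mir192 and Mir194 had 82 to 212 and 10 to 35. Markers of other cells were low: Mir223 2 to 18 reads and Mir155 1 to 30 (leukocytes), Mir126 1 to 4 (endothelium), Mir143 0 to 8 and Mir145 10 to 20 (stroma), Mir451 18 to 45 (red cells). Mir142 and Mir150 were not listed under these names, nor was any of the 11 markers in the SNU449 table. The METTL1 row had 6 and 0 reads in the control SNU449 libraries and 142 and 81 in the overexpressing ones (input and NaBH4), in the order the labels give. These libraries select small RNA, so the row shows fragments of the transcript, not its level.

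In the input, Lys-CTT was the most abundant of the 3 anticodons. It took 4.49% ± 0.29 (SD, n = 3) of mature tRNA reads in mouse tumors, against 3.35% ± 0.27 for Lys-TTT and 1.51% ± 0.70 for Asn-GTT. The Asn-GTT share was 1.02%, 1.19% and 2.31% in mouse 1, 2 and 3, so mouse 3 had about as much as the others together. In the SNU449 control input the shares were 6.14%, 3.24% and 1.87%, in the same order as in mouse, and in the overexpressing input they were 7.99%, 4.41% and 2.05%. In tissue, fewer cells of a type and less RNA per cell cannot be told apart.

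Few isodecoders carried the signal. Lys-CTT-3 and Lys-CTT-2 made up 69.0% and 30.6% of the mouse Lys-CTT signal over all libraries, Lys-TTT-1 93.7% of Lys-TTT, and Asn-GTT-3 96.7% of Asn-GTT. In SNU449 cells, Lys-CTT-2, Lys-CTT-4 and Lys-CTT-3 took 30.0%, 29.6% and 29.4% of the summed Lys-CTT signal, and Lys-TTT-3 took 70.7% of Lys-TTT. Asn-GTT-3, Asn-GTT-2, Asn-GTT-5 and Asn-GTT-4 took 27.8%, 27.7%, 19.3% and 17.9% of Asn-GTT. Several of these rows moved as one: the 3' signals of human Asn-GTT-2 and Asn-GTT-3, of Lys-CTT-3 and Lys-CTT-4, and of Lys-TTT-2 and Lys-TTT-4 differed by under 1% in each of the 4 libraries. Outside 3' fragments, the human rows of class other of Lys-TTT-3, Lys-TTT-4 and Lys-TTT-6 were equal in each library. Whether the same reads were counted for each of them is not stated in the labels, so a sum over isodecoders may count a read more than once. No mouse pair among the more abundant 3' rows was that close. The rows of class other of mouse Lys-TTT-1 and Lys-TTT-2 were, however, equal in every library.

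The RefSeq gene table of GRCh38.p14, with chromosome 8 left out, names 27 of the 31 human isodecoders, each as a tRNA gene of its own. Copies below are counted without that chromosome. Lys-CTT-3 (chr16:3157405-3157477), Lys-CTT-4 (chr16:3191501-3191573), Lys-CTT-5 (chr16:3180554-3180626), Lys-CTT-8 (chr16:3164938-3165010) and 1 of the 5 copies of Lys-CTT-2 (chr16:3175691-3175763) lie together on chromosome 16. Lys-CTT-1 has copies at chr14:58239895-58239967 and chr15:78860562-78860634. Lys-TTT-3 has 5 copies, 2 of them neighbours on chromosome 1 (chr1:204506527-204506599 and chr1:204507030-204507102). Asn-GTT-5 (chr1:16520585-16520658), Asn-GTT-4 (chr1:16889677-16889750) and Asn-GTT-3 (chr1:144419267-144419340) are single copies on chromosome 1, where 4 of the 8 copies of Asn-GTT-2 also lie. Positions in mouse were not used here.

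NaBH4 treatment raised 3' fragments of Lys-CTT in mouse tumors, and the largest change was in its second isodecoder. The Lys-CTT-2 3' signal (reads scaled by 1 factor per library) was 9944, 8346 and 6064 in the inputs of mouse 1, 2 and 3 and 115532, 76318 and 64610 after NaBH4. Every treated library was far above every input. The log2 change was 3.38 ± 0.31 (SE), with an adjusted p of 0.00766 from limma over all 16849 rows tested. It was the only one of 40 tested lysine and asparagine rows called higher, where 0.178% of all rows and 14.8% of mature tRNA 3' rows were called. None of the 40 was called lower (0% of all rows). The other 36 of the 76 rows were too low to test, and 6 of the tested rows had fewer than 3 inputs at the minimum value of 1, so they passed the filter only with their NaBH4 values. Asn-GTT-5 was the 1 such row among 3' fragments. It was not called in this fit. Any call of it had to go one way, and the counts and medians of 3' rows below include it as a description only. The Lys-CTT-2 call was lost without NaBH4 library 1, NaBH4 library 2 or input library 2 (limma, adjusted p 0.0553, 0.0722 and 0.0765). The changes were then 3.14, 3.44 and 3.42. That call was also lost with no filter on low values (limma, adjusted p 0.0514).

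Same-numbered libraries come from 1 animal. With the animal as a block, limma called 12 of these rows higher and 2 lower, where it called 1.54% of all rows higher and 0.326% lower. All 12 were 3' rows (5 Lys-CTT, 3 Lys-TTT and 4 Asn-GTT, of 16 tested), and among mature tRNA 3' rows 51.5% were called higher in the same fit. DESeq2 on recovered reads called 5 rows higher: the 3' rows of Lys-CTT-1, Lys-CTT-2, Lys-CTT-14, Lys-TTT-4 and Asn-GTT-5, where it called 0.651% of the rows it tested. Asn-GTT-5 is also 1 of the 12 called with the block. The groups did not overlap, with NaBH4 higher, for 11 of the 16 tested 3' rows, where this held for 46.9% of mature tRNA 3' rows and 3.99% of all rows. The median log2 change was 1.32 over the 16 rows, 0.67 over 196 mature tRNA 3' rows and -0.03 over all rows.

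The more abundant Lys-CTT-3 started higher and showed a smaller proportional difference. Its 3' signal was 77543, 70513 and 68956 in the inputs and 178373, 121121 and 126919 after NaBH4, which is 2.30-, 1.72- and 1.84-fold. The groups did not overlap, and the log2 difference of 0.95 ± 0.26 (SE) passed only with the animal as a block (limma, adjusted p = 0.00177, against 0.706 without it). The absolute gains of both isodecoders were close: 105589, 67972 and 58545 for Lys-CTT-2 against 100830, 50609 and 57963 for Lys-CTT-3, ratios of 1.05, 1.34 and 1.01. The mean input signal of Lys-CTT-3 was 8.91 times that of Lys-CTT-2. Whether the same reads were counted in both rows was not tested. Lys-CTT-4, next in abundance, had 249, 214 and 205 in the inputs and 545, 402 and 407 after NaBH4. Its groups did not overlap either (log2 difference 1.00 ± 0.27, limma adjusted p = 0.702, 0.0108 with the block).

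Whole-length reads moved the other way. The Lys-CTT-3 whole-length signal was 1252, 839 and 440 in the inputs and 407, 278 and 270 after NaBH4. Lys-CTT-2 had 154, 119 and 46.7 and then 46.2, 26.8 and 20.4. Both rows were lower in each animal with no overlap between groups, as were 35.4% of mature tRNA whole-length rows, and both were called lower only with the animal as a block (limma, adjusted p = 0.0177 and 0.0269, against 1.00 for both without it). In that fit 19.5% of mature tRNA whole-length rows were called lower. Summed over isodecoders, Lys-CTT whole-length signal fell by 1.34 ± 0.38 (SE) on the log2 scale (limma over 185 anticodon and class sums, adjusted p = 0.0162), where 26.3% of whole-length sums were called lower. That call was lost without input library 1 (-0.99, adjusted p = 0.0911) and without NaBH4 library 2 (-1.26, adjusted p = 0.133). Lys-CTT 5' signal was 8755, 6621 and 4443 in the inputs and 6371, 4237 and 4208 after NaBH4. It was lower in each animal but the groups overlapped, and the sum was not called (-0.39, adjusted p = 0.482; 0.0219 with the block, where 51% of 5' sums were called lower).

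**Figure D1:**
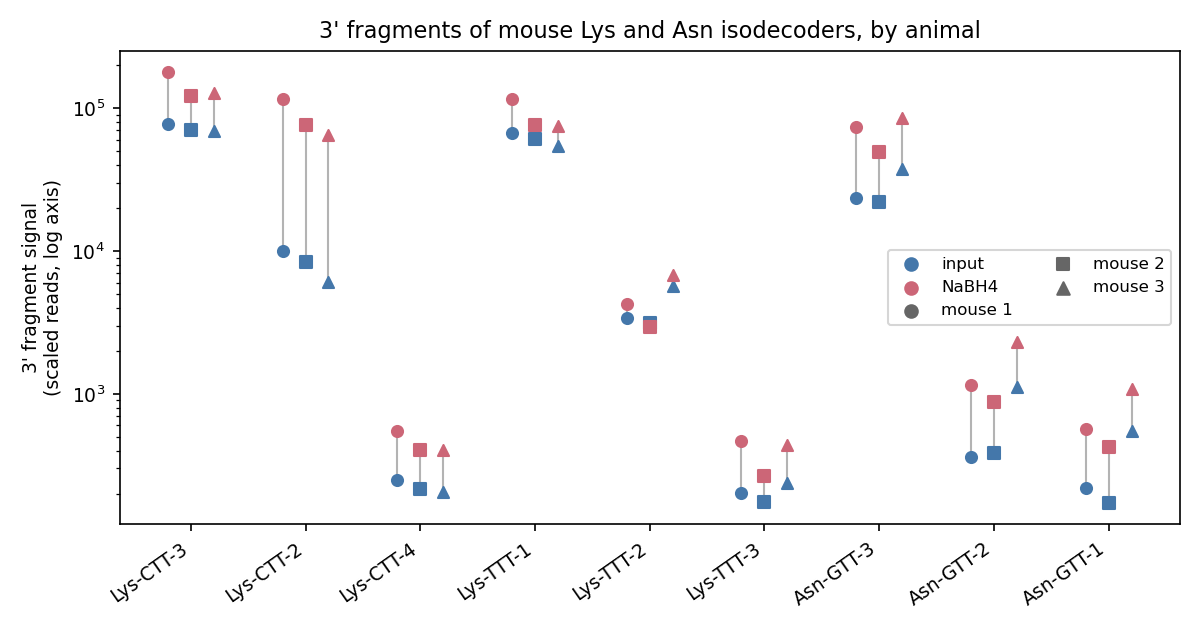
3' fragment signal (scaled reads, log axis) of the 3 most abundant mouse isodecoders of each anticodon, with a grey line joining input (blue) to NaBH4 (red) of 1 animal and a marker shape per animal. The longest lines are those of Lys-CTT-2, from 6064 to 9944 in input up to 64610 to 115532 after NaBH4, while the lines of Lys-TTT-1 and Lys-TTT-2 are short.

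Lys-TTT, the other lysine acceptor, differed less. Lys-TTT-1 3' signal was 67190, 60510 and 54432 in the inputs and 115941, 76764 and 75608 after NaBH4. All treated libraries were above all inputs, but the log2 difference of 0.53 ± 0.27 (SE) passed only with the block (limma, adjusted p = 0.0284, against 1.00 without it), and with mature tRNA totals set equal it was -0.13. Lys-TTT-2 had 3402, 3131 and 5643 in the inputs and 4256, 2937 and 6756 after NaBH4. It was lower in mouse 2 and higher in mouse 1 and 3. Lys-TTT-3 had 201, 174 and 237 and then 469, 267 and 435 (adjusted p = 0.0371 with the block in limma, 1.00 without it). The low-abundance Lys-TTT-4, chosen after its values were seen, had 3.65, 3.63 and 3.71 in the inputs and 22.4, 36.4 and 25.5 after NaBH4, with no overlap. Lys-TTT 5' signal showed no common direction, with 1283, 927 and 569 in the inputs and 1398, 836 and 576 after NaBH4.

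Asn-GTT fragments differed between treated and input libraries about as much as those of Lys-CTT. Asn-GTT-3 3' signal was 23370, 22051 and 37422 in the inputs and 74056, 49177 and 85098 after NaBH4. Mouse 3 was the highest in both groups, and the groups did not overlap (log2 difference 1.34 ± 0.32 (SE), limma adjusted p = 0.506, 0.000671 with the block). Asn-GTT-2 had 361, 383 and 1111 and then 1155, 875 and 2298, and Asn-GTT-1 had 218, 172 and 553 and then 563, 424 and 1080. In both, input of mouse 3 reached into the treated range, while each animal was higher after NaBH4 (limma with the block, adjusted p = 0.0037 and 0.00465). Asn-GTT-5, chosen after its values were seen, had 3.65, 0 and 3.71 in the inputs and 89.4, 55.6 and 70.4 after NaBH4. Its inputs rest on at most a few reads each.

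Summed over isodecoders, the 3' signal of mouse Lys-CTT was 87853, 79197 and 75372 in the inputs and 295001, 198221 and 192299 after NaBH4. The groups lay far apart, and the sum rose by 1.47 ± 0.33 (SE) on the log2 scale (limma, adjusted p = 0.0024). Asn-GTT 3' signal was 23954, 22609 and 39094 and then 75867, 50540 and 88551, a rise of 1.33 ± 0.34 (adjusted p = 0.00858). Among all 50 anticodon 3' sums 34% were called higher. The Lys-TTT sum was 70843, 63865 and 60505 and then 120910, 80119 and 83100, a difference of 0.52 ± 0.32 that passed only with the block (limma, adjusted p = 0.293 without it and 0.00126 with it, where 60% of 3' sums were called higher). Without NaBH4 library 1 it was 0.33. With mature tRNA totals set equal, Lys-CTT still rose (0.81, adjusted p = 0.00479), Asn-GTT was 0.67 (adjusted p = 0.139) and Lys-TTT was -0.15 (adjusted p = 0.395). In that scaling Lys-CTT whole-length and 5' sums fell by 2.00 (adjusted p = 0.00125) and by 1.06 (adjusted p = 0.00189). That fit called 30% of 3' sums higher, and 61.4% of whole-length and 61.2% of 5' sums lower. The Asn-GTT call was also lost without input library 2 (1.19, adjusted p = 0.0527). Taking Lys-CTT-3 alone in place of the Lys-CTT sum gave 0.95 (adjusted p = 0.0278). That value is without equal tRNA totals. With mature tRNA totals set equal, the Lys-CTT-3 3' row differed by 0.29 (limma over rows, adjusted p = 0.548). The Lys-CTT-2 3' row rose by 2.72 in the same fit (adjusted p = 0.00173).

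The share of 3' fragments within an anticodon does not depend on the library factor. For mouse Lys-CTT it was 89.3%, 90.9% and 93.4% in the inputs and 97.7%, 97.7% and 97.6% after NaBH4. The inputs were spread and the treated libraries nearly equal. The log2 ratio of 3' reads to all other reads rose by 1.96 ± 0.25 (SE; limma over 49 anticodons, adjusted p = 0.000415). For Asn-GTT the share was 99.4% in each input and 99.8%, 99.9% and 99.8% after NaBH4, and the ratio rose by 1.85 ± 0.25 (adjusted p = 0.000484). That call was lost against whole-length and 5' reads alone (1.70, adjusted p = 0.235). For Lys-TTT the share was 98.1%, 98.5% and 99.0% and then 98.8%, 98.9% and 99.2%, and the ratio differed by 0.51 ± 0.32 (adjusted p = 0.200, 0.0176 with the block). It was 0.28 without input library 1, 0.30 without NaBH4 library 3 and 0.77 without input library 3. Across the 49 anticodons 61.2% were called higher, and 75.5% with the block.

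By isodecoder, 4 of 9 tested members had a higher 3' ratio in mouse, against 49.1% of 161 tested isodecoders, so the members' share is near that of tRNAs at large. The 4 were Lys-CTT-2 (3.96 ± 0.24, limma adjusted p = 7.51e-05), Lys-CTT-3 (1.38 ± 0.28, 0.0059), Asn-GTT-3 (1.80 ± 0.25, 0.00114) and Asn-GTT-1 (1.88 ± 0.36, 0.00474). The Lys-CTT-2 share stood at 70.6%, 72.8% and 75.8% in the inputs, and at 97.8%, 97.8% and 97.5% after NaBH4. In the inputs the called Lys-CTT-3 stood at 92.5% to 95.4%, Asn-GTT-3 at 99.7% and Asn-GTT-1 at 75.7% to 83.6%. Asn-GTT-2, Lys-CTT-4, Lys-TTT-1, Lys-TTT-2 and Lys-TTT-3 stood at 88.4% to 100% in the inputs and were not called. With the block 6 of the 9 were called, against 64.6% of the 161.

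Between anticodons, the ratio changed more for Lys-CTT than for Lys-TTT in each mouse, by 1.64, 1.61 and 1.10 on the log2 scale. The mean difference was 1.45 ± 0.30 (SD, n = 3; exact two-sided sign-flip permutation test, p = 0.25, the smallest that 3 animals can give). Asn-GTT exceeded Lys-TTT by 1.20, 1.79 and 1.05, also in 3 of 3 mice (exact permutation p = 0.25). Lys-CTT and Asn-GTT differed by 0.44, -0.18 and 0.05, with no common sign (mean 0.11 ± 0.31, exact permutation p = 0.75). Ala-AGC, an alanine tRNA set beside them, changed more than Lys-CTT by 1.87, 1.97 and 2.24. Phe-GAA, a phenylalanine tRNA, changed less than Lys-CTT by 2.58, 2.77 and 1.55 (the values of Lys-CTT minus Phe-GAA). Adjusted over 21 such comparisons, the smallest p was 0.276, so none could pass the threshold.

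**Figure D2:**
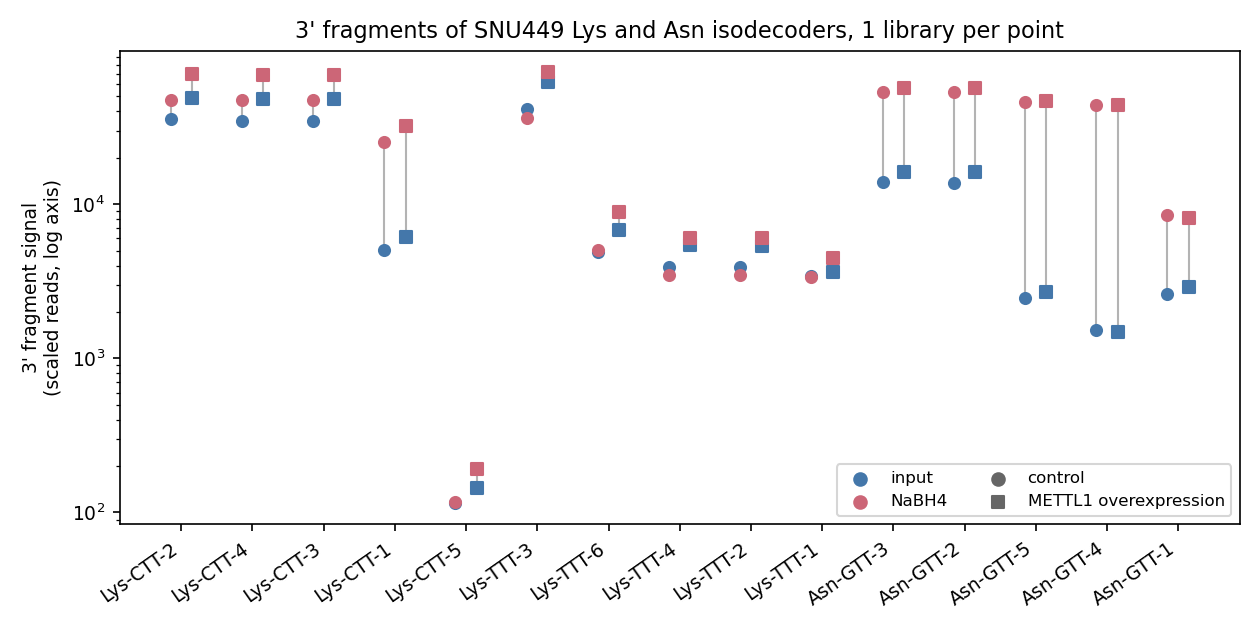
3' fragment signal (scaled reads, log axis) of the 5 most abundant SNU449 isodecoders of each anticodon, with input in blue, NaBH4 in red, circles for control and squares for METTL1 overexpression, 1 library per point. Asn-GTT-4 and Asn-GTT-5 start low and end near Asn-GTT-2 and Asn-GTT-3, while input and NaBH4 points of Lys-TTT-3 lie close within a condition (41213 and 36446 in control, 62298 and 71705 in overexpressing cells).

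In SNU449 cells Asn-GTT had the largest proportional difference of the 3 anticodons. Its summed 3' signal was 34888 in the control input and 211854 after NaBH4, 6.07-fold (95% exact interval 6.01 to 6.13). In overexpressing cells it was 40076 and 218473, 5.45-fold (5.40 to 5.51). Such intervals cover counting error alone, because the libraries carry no molecular identifiers and copies of 1 molecule may be counted, and they treat reads shared by several isodecoders as separate. All 13 Asn-GTT 3' rows were at least 2-fold higher after NaBH4 in both conditions (on the log2(value + 1) scale), where 40.1% of mature tRNA 3' rows were in control and 45.5% in overexpressing cells, and 15.7% and 18% of all rows. Asn-GTT-8 had 2.80 and 0.885 in the control and overexpressing inputs, and 6.99 and 4.76 after NaBH4. It passed the filter on low values only with its NaBH4 values, so the count includes it as a description only. With mature tRNA totals set equal the log2 differences of the Asn-GTT sum were 1.96 and 1.74.

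The 4 most abundant Asn-GTT isodecoders had similar 3' levels after NaBH4 although their inputs differed. The other 9 of the 13 lay lower after NaBH4 in control cells, from 6.99 for Asn-GTT-8 to 8564 for Asn-GTT-1. Asn-GTT-3 3' signal went from 13838 to 53669 in control cells (3.88-fold), and Asn-GTT-2 from 13818 to 53632 (3.88-fold). Asn-GTT-5 went from 2464 to 45743 (18.6-fold, 95% exact interval 17.9 to 19.2). Asn-GTT-4, next in abundance and chosen after its values were seen, went from 1524 to 43781 (28.7-fold, 27.5 to 30.0). The absolute gains of these 4 in control cells were close, at 39831 for Asn-GTT-3, 39814 for Asn-GTT-2, 43279 for Asn-GTT-5 and 42258 for Asn-GTT-4, although the input signals ran from 1524 to 13838. In overexpressing cells the gains were 40528, 40512, 43990 and 42425. Whether the same reads were counted in several of these rows was not tested, so their gains and folds may not be independent. Asn-GTT-1 gained less, from 2598 to 8564 in control (3.30-fold) and from 2906 to 8172 in overexpressing cells (2.81-fold). The smaller folds among the 13 rows were 2.55 for Asn-GTT-7 and 2.50 for Asn-GTT-8, the latter on a handful of reads.

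Lys-CTT differed less in SNU449 cells. The 3' sum was 109637 in the control input and 167462 after NaBH4 (1.53-fold), and 151755 and 240422 in overexpressing cells (1.58-fold). With mature tRNA totals set equal these differences were -0.04 on the log2 scale in both conditions. The exception among abundant members was Lys-CTT-1, next in abundance and chosen after its values were seen. Its 3' signal went from 5008 to 25416 in control (5.07-fold, 95% exact interval 4.94 to 5.21) and from 6142 to 32261 in overexpressing cells (5.25-fold, 5.12 to 5.39). Lys-CTT-2 went from 35423 to 47514 in control (1.34-fold) and from 49168 to 69672 in overexpressing cells (1.42-fold), and Lys-CTT-3 and Lys-CTT-4 had 1.37-fold in control and 1.44- and 1.43-fold in overexpressing cells. The Lys-CTT-1 gain of 20407 in control cells was 1.61 to 1.69 times those of Lys-CTT-2, Lys-CTT-3 and Lys-CTT-4. In overexpressing cells it was 1.24 to 1.27 times theirs. Rarer Lys-CTT rows differed among themselves. In control cells Lys-CTT-5 went from 116 to 117 (1.01-fold) and Lys-CTT-8 from 23.8 to 10.5 (0.44-fold, 34 and 12 reads). Lys-CTT-9 went from 14.7 to 49.8 (3.39-fold, 21 and 57 reads). In overexpressing cells these rows had 1.34-, 1.49- and 1.81-fold. Lys-CTT-1 also had the lowest 3' share of the abundant members, 75.7% in the control input against 96.1% after NaBH4.

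Lys-CTT whole-length signal was 198 in the control input (283 reads) and 27.1 after NaBH4 (31 reads), 0.137-fold with a 95% exact interval of 0.0912 to 0.199. In overexpressing cells it was 199 (225 reads) and 67.8 (57 reads), 0.341-fold (0.25 to 0.457). The counting intervals of the 2 conditions do not overlap, but each rests on 1 library. Lys-CTT 5' signal was 5451 and 4011 in control (0.736-fold) and 4937 and 3904 in overexpressing cells (0.791-fold).

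**Figure D3:**
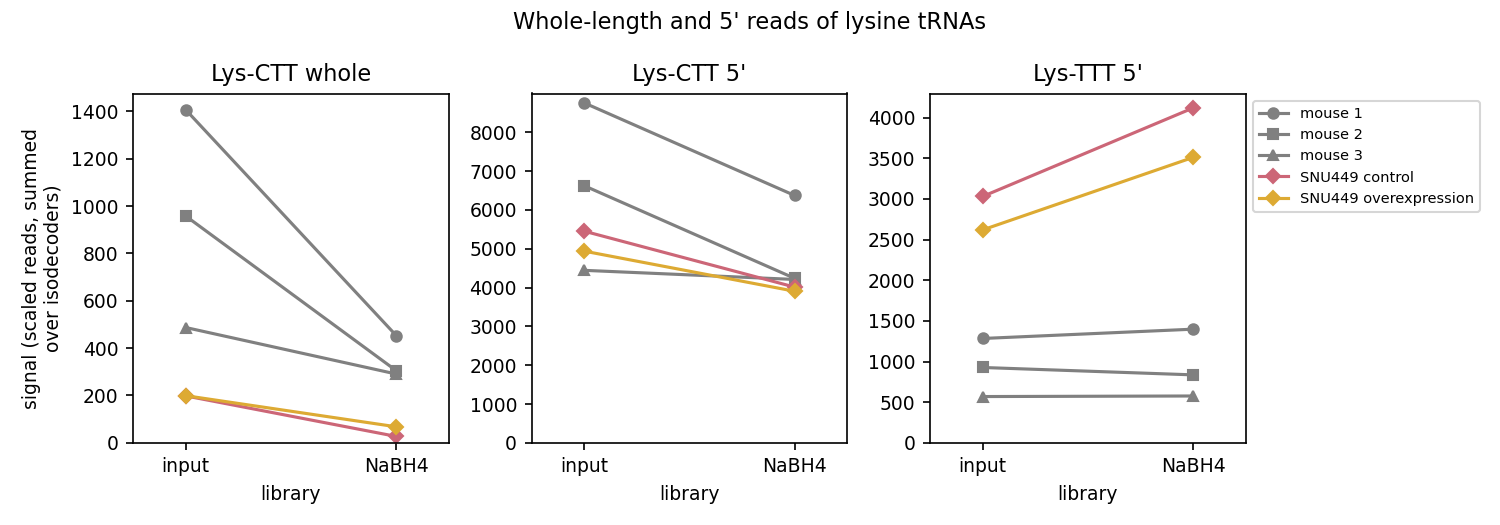
Summed signal (scaled reads, linear axes from 0) of Lys-CTT whole-length, Lys-CTT 5' and Lys-TTT 5' reads, with a line from input to NaBH4 for each mouse (grey) and for control (red) and overexpressing (yellow) SNU449 cells. The Lys-CTT whole-length lines go down in all 5 pairs, while Lys-TTT 5' goes up in both SNU449 pairs, from 3030 to 4119 and from 2619 to 3510. The mouse and SNU449 tables were scaled separately, so heights are not comparable between them.

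Lys-TTT 3' signal was not higher after NaBH4 in control SNU449 cells. The sum was 57583 in the input and 52044 after NaBH4 (0.904-fold, 95% exact interval 0.894 to 0.913). In overexpressing cells it was 83950 and 97761 (1.16-fold, 1.15 to 1.18). Lys-TTT-3, the main member, went from 41213 to 36446 in control and from 62298 to 71705 in overexpressing cells. Lys-TTT-6 went from 4908 to 5050 and from 6774 to 8948, and Lys-TTT-4 from 3892 to 3456 and from 5397 to 6035. Lys-TTT 5' signal was higher after NaBH4, from 3030 to 4119 in control (1.36-fold) and from 2619 to 3510 in overexpressing cells (1.34-fold), where the median mature tRNA 5' row differed by -0.46 and -0.24 on the log2 scale. The 5' rows of Lys-TTT-3 and Lys-TTT-5 were nearly equal, at 983 and 978 in the control input and 1351 and 1348 after NaBH4. This 5' sum may therefore count reads more than once. Lys-TTT-7, chosen after its values were seen, was the only Lys-TTT isodecoder with a 3' signal at least 2-fold higher. It went from 23.8 to 76.0 in control (3.19-fold, 2.13 to 4.90) and from 34.5 to 103 in overexpressing cells (3.00-fold, 2.03 to 4.50).

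The 3' share within an anticodon did not follow the level in each case. In control SNU449 cells it was 94.9% in the input and 97.5% after NaBH4 for Lys-CTT, a difference of 2.68 percentage points. For Lys-TTT it was 94.6% and 91.8%, a difference of -2.79, and for Asn-GTT 99.4% and 99.9%, a difference of 0.566. In overexpressing cells the differences were 1.74, -0.532 and 0.385 percentage points. Overexpression minus control was -0.944 for Lys-CTT, 2.26 for Lys-TTT and -0.181 for Asn-GTT, with no replicate to set against them. On the log2 ratio scale used for mouse, the changes in control and overexpressing cells were 1.10 and 1.04 for Lys-CTT, -0.64 and -0.23 for Lys-TTT, and 3.18 and 2.70 for Asn-GTT, so the conditions lay close for Lys-CTT. The input shares already differed between the conditions, at 94.9% and 96.6% for Lys-CTT and at 94.6% and 96.7% for Lys-TTT. The 95% Clopper-Pearson intervals for Lys-TTT were 94.4% to 94.7% and 96.6% to 96.8%.

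**Figure D4:**
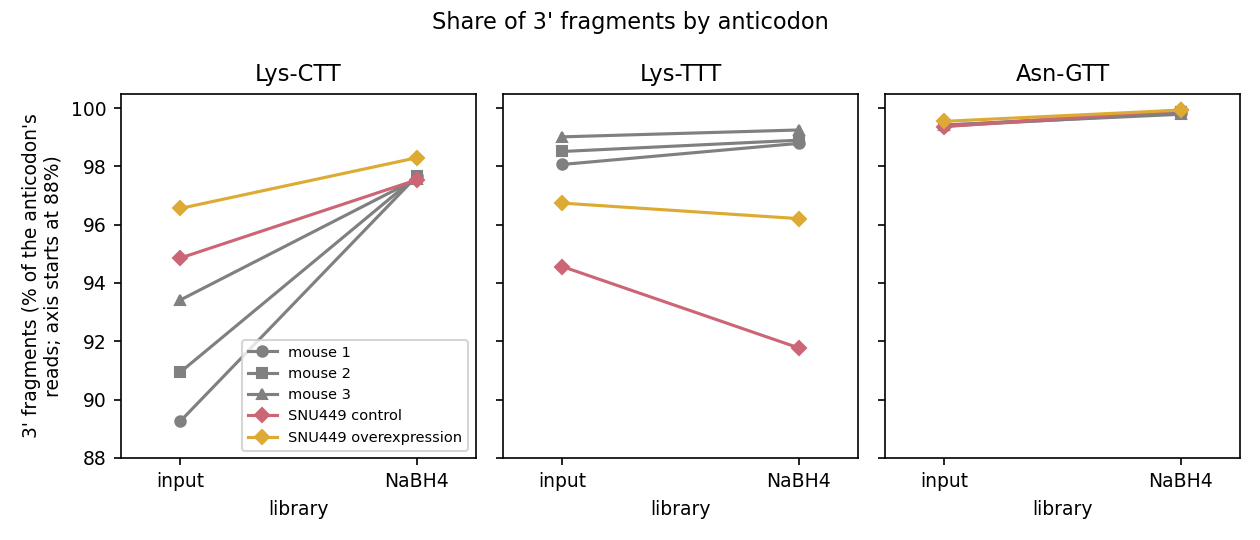
3' fragments as a percentage of the reads of an anticodon, on an axis from 88%, with a line from input to NaBH4 for each mouse (grey) and for control (red) and overexpressing (yellow) SNU449 cells. Lys-CTT lines go up to 97.5% or more, Asn-GTT lines stay close to the top of the axis, from 99.36% in the SNU449 control input, and the SNU449 lines of Lys-TTT go down.

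Side by side, the log2 change of the 3' sum was 1.75, 1.32 and 1.35 in the 3 mice for Lys-CTT, against 0.61 in control and 0.66 in overexpressing SNU449 cells. For Asn-GTT it was 1.66, 1.16 and 1.18 in the mice, against 2.60 and 2.45. For Lys-TTT it was 0.77, 0.33 and 0.46, against -0.15 and 0.22. Each SNU449 value lies outside the range of the mice, Lys-CTT and Lys-TTT below it and Asn-GTT above it. Among 44 anticodons with a mean 3' signal of at least 1000 in both tables, ranked from the largest change, Asn-GTT stood 14th in mouse and 5th and 6th in control and overexpressing SNU449 cells. Lys-CTT stood 13th, 23rd and 24th, and Lys-TTT 26th, 41st and 36th. For scale, Ala-AGC changed by 3.31 ± 0.19 (SD, n = 3) in mouse and 2.77 in control SNU449 cells, and Phe-GAA by -0.35 ± 0.30 and -0.13. Species, tumor tissue against cultured cells, and table differ together here and cannot be told apart.

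**Figure D5:**
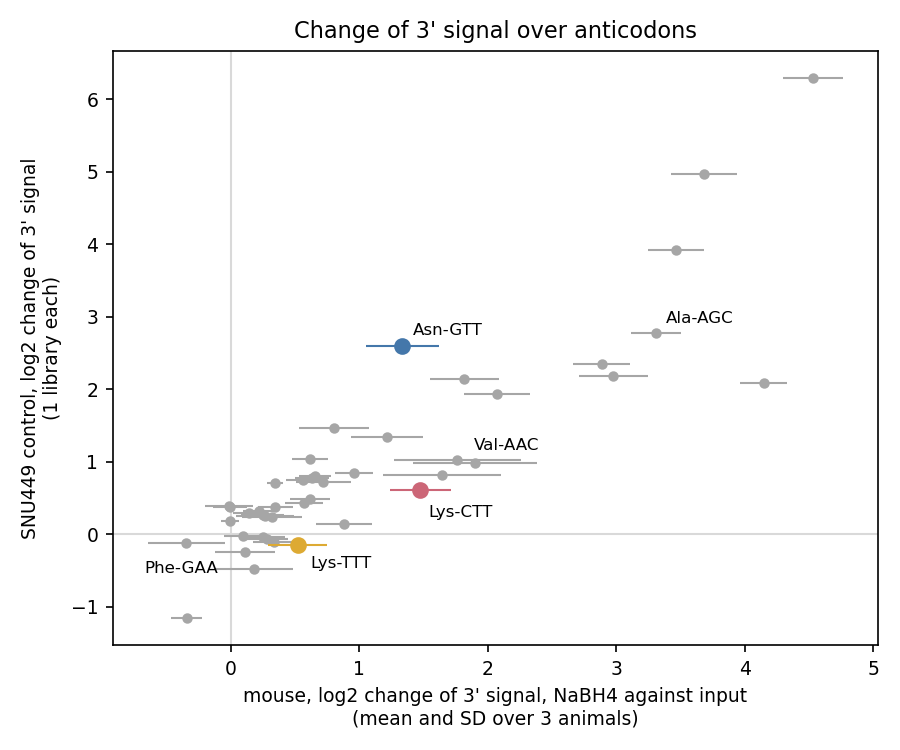
Log2 change of summed 3' signal, NaBH4 against input, for 44 anticodons, in mouse (x axis, mean and SD over 3 animals) and in control SNU449 cells (y axis, 1 library each). Asn-GTT (blue) is at 1.33 and 2.60, Lys-CTT (red) at 1.47 and 0.61, and Lys-TTT (yellow) at 0.52 and -0.15, with other anticodons in grey.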

How the data were processed

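Deposited TRAC-Seq tables of 6 mouse and 4 SNU449 libraries were used, and those of MHCC97H cells were not analysed here. The submitters' processing notes name Bowtie2, HTSeq and GRCh38 with no version, GRCh38 also for mouse. How reads that match several isodecoders were counted is not given in the sources used here. Values that the authors deposited as RPKM behave as a signal made of reads divided by 1 factor per library. Within 0.01, 99.99% of the mouse values came out as whole reads, and 99.98% of those of SNU449. No correction for feature length was therefore assumed.

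The 16849 rows reaching a value of 1 in 3 or more of the 6 mouse libraries were tested with limma 3.58.1 in R 4.3.3 on log2(value + 1), two-sided, with Benjamini-Hochberg adjustment and a threshold of 0.05. Such changes understate those of low rows. The 3' ratio was log2 of (3' reads + 0.5) over (other reads + 0.5), for features with at least 100 reads in every library. edgeR 4.0.16 and DESeq2 1.42.0 were run on recovered reads as alternatives. Only the limma fit of mouse rows without the block was tested on simulated data, which held no animal effect. The mouse number in the labels is the animal, and same-numbered libraries deviated together (correlations of 0.233, 0.287 and 0.578).

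Members and lists were chosen with earlier results of these data known. Isodecoders named are the 3 most abundant per anticodon and table, plus called rows. All other isodecoders named were chosen after their values were seen. Sums of 3' signal by anticodon were added after seeing the data.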

Additional observations from a re-analysis of the deposited data

Results flagged for a closer look

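The 3' share of Lys-TTT moved in opposite directions in the 2 tables: by 0.724, 0.388 and 0.236 percentage points in the 3 mice, and by -2.79 in control and -0.532 in overexpressing SNU449 cells. The difference was not tested, since each SNU449 condition has 1 library of each kind.

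The Lys-TTT 3' signal after NaBH4 differed from input by -0.146 on the log2 scale in control and by 0.220 in overexpressing SNU449 cells. The difference was not tested either, and the mature tRNA total shifted by 0.65 and 0.70 in the same pairs.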

How the results depend on the processing

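Depth limits the whole-length reads of Asn-GTT and Lys-TTT, the 5' reads of Asn-GTT and the rare isodecoders. The number of animals and the single SNU449 libraries limit every comparison. Where a result changed, the cause was not tested.

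Mouse rows called higher numbered 1, also with edgeR, against 5 with DESeq2, 12 with the animal as a replicate block, 2 with a pseudocount of 10, and 0 to 1 with 1 library left out. Rows called lower numbered 0, against 2 with the block. The other calls that the block changed stand beside their results. It gave a Lys-TTT ratio change of 0.51 and a level change of 0.52, both then past the threshold. Isodecoders with a higher ratio numbered 4, against 2 when compared with 5' and whole reads only and 7 with no minimum of reads. The Asn-GTT ratio was 1.70 against those 2 classes. With mature tRNA totals set equal, values were -0.15 for the Lys-TTT 3' sum, -0.13 for Lys-TTT-1 3', -0.50 for Lys-TTT-2 3', -0.64 for Lys-TTT-1 5' and 0.67 for the Asn-GTT 3' sum. With 1 library left out, Lys-TTT-2 3' ranged from -0.15 to 0.45 and Lys-TTT-1 5' from -0.31 to 0.32. Over such fits the Lys-TTT ratio ranged from 0.28 to 0.77, the Asn-GTT 3' sum from 1.16 to 1.58, the Lys-CTT whole-length sum from -1.76 to -0.99, and Lys-CTT minus Asn-GTT, leaving out 1 animal, from -0.0608 to 0.249.

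For SNU449, comparing 3' reads with 5' and whole reads only gave share changes of 2.55 (Lys-CTT), -2.36 (Lys-TTT) and 0.073 (Asn-GTT) percentage points in control and -0.00209 for Asn-GTT in overexpressing cells. Overexpression minus control became 1.92 for Lys-TTT and -0.0751 for Asn-GTT, and control minus the mouse mean -2.78 for Lys-TTT and 0.0558 for Asn-GTT. The largest isodecoder alone, an alternative added after seeing the data, gave 1.71 and 1.35 for Lys-CTT, -1.41 and -0.233 for Lys-TTT, and 0.315 and 0.243 for Asn-GTT in control and overexpressing cells, with overexpression minus control of -0.363, 1.18 and -0.0714. Counting whole and 3' reads only, input shares in mouse and control SNU449 cells were 9.58% and 10.6% for Lys-CTT, 7.63% and 5.54% for Lys-TTT, and 3.36% and 3.36% for Asn-GTT. Under the alternatives run, 301 values kept their direction and, where tested, their side of the threshold (counts stayed within 1.5 times), and 13 values of single rows kept their direction but crossed it. Another 6 values of single rows reversed direction. Among values of the main results, 31 moved, 3 reversed direction, 5 lost a call and 2 gained one.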
